A study of Mus musculus with 31 samples.

Results

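A set of 31 genes that pattern the placodes, the facial mesenchyme and the forebrain was followed through developing olfactory and trigeminal nerve tissue of the mouse. The genes were chosen by symbol, and each was matched to 1 row of the table of counts by its Ensembl identifier, so that all 31 were found among 47729 genes listed. Of the 31, 30 encode homeodomain proteins and 1, Sp8, encodes a zinc-finger protein of the Sp family. RNA-seq was available for 31 libraries in 7 groups. Every embryo carried the transgene Sox10:H2BVenus, a nuclear fluorescent reporter of Sox10-expressing cells, and under its fluorescence small pieces of nerve were cut by laser from thin frozen sections. Olfactory nerve (ON), from the tissue under the olfactory epithelium, was taken at E11.5 (n = 4), E13.5 (n = 7) and E16.5 (n = 4). The olfactory nerve layer (ONL), in which olfactory axons and their glia cover the olfactory bulb, was taken at E13.5 (n = 5). At E16.5 it was taken as outer ONL (n = 4), farthest from the bulb, and as inner ONL (n = 4), next to the bulb. Branches of the trigeminal nerve near the nose (TN) were taken at E16.5 (n = 3). The pieces were cut by position and were not sorted, so each can hold neighbouring cells, and a smaller number of cells of a type cannot be told apart from less RNA per cell. In the E11.5 ON, E13.5 ON and E13.5 ONL groups some libraries came from the same embryo, so these groups held fewer embryos than libraries. The tests treated each library as 1 unit. Their p-values measure the spread between libraries, part of which may be technical, and not that between embryos alone.

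Homeodomain proteins bind DNA through a folded domain of about the same shape in all families, and many of them recognise sites built on the letters TAAT. In the embryonic head their expression domains divide the tissue by position. Genes of the Otx, Emx and sine oculis-related (Six2 to Six6) families and Pax6 mark the anterior neural plate, the telencephalon and the placode that gives rise to the olfactory epithelium, Dlx5 and Dlx6 act in the olfactory placode and in facial crest cells, Dlx1 and Dlx2 act in interneuron precursors of the forebrain and in the facial arches, and Alx, Prrx, Msx, Pitx1 and Barx1 act in the mesenchyme of the face, which comes largely from neural crest, as olfactory ensheathing cells (OECs) and Schwann cells do. Nerve glia of the nose thus develop next to several tissues in which these genes are known to be active.

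RefSeq promoter windows (GRCm38.p6, 250 bases before to 50 bases after an annotated start) were at hand for 23 of the 31 genes, 32 windows in all. The letters TAATTA, which read the same on both strands and form the core of many homeodomain sites, were found in windows of 5 genes, Emx2, Msx2, Otx2, Prrx1 and Sp8 (6 of 32 windows, 18.8%, against 5.29% of 32851 windows of all genes). The letters TAATCC or, on the other strand, GGATTA, the core bound by Otx and Pitx proteins, were in windows of Otx2 and Sp8 (2 of 32 windows, 6.2%, against 7.06% of all windows). Windows of 1 gene can overlap, and a match of letters is a description and not a binding site. All 5 genes with TAATTA were lower in outer ONL than in olfactory nerve at E16.5, as given below for each. So were 5 of the 18 genes whose windows lacked it. The 18 include Hesx1, which was not tested for a difference and is not among the 5. Alx1, Dlx3, Dlx5, Dlx6, Otx1 and Pitx1, for which no window was at hand, were lower too. The same split was not made over all genes, and a link between motif and direction was not tested. As examples, 1 window each of 3 of the genes with TAATTA is shown, and Emx2 and Sp8 are not shown. For Otx2 it is the window with most copies, and the other Otx2 windows held TAATTA 1 time or 0 times. They are the bases before the RefSeq start, 5′ to 3′ on the strand of the gene, with TAATTA and GGATTA in capitals. In the GENCODE M21 annotation the Otx2 and Msx2 windows lie inside the gene, and the Prrx1 window overlaps the 5′ end of its gene. The windows shown can therefore hold exon bases of that annotation. All 3 genes are on the minus strand, and the positions are chr14:48665110-48665359 for Otx2, chr1:163313651-163313900 for Prrx1 and chr13:53472781-53473030 for Msx2.
Otx2: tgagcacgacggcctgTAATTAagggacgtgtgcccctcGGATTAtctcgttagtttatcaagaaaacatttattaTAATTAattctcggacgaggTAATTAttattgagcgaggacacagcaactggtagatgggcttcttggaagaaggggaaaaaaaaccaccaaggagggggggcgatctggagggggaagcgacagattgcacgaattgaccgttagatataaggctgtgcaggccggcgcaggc
Prrx1: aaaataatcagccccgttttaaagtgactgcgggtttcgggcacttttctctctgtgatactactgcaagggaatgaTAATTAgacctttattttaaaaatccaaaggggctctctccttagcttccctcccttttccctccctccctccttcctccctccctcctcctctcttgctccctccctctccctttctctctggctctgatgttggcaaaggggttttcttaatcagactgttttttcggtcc
Msx2: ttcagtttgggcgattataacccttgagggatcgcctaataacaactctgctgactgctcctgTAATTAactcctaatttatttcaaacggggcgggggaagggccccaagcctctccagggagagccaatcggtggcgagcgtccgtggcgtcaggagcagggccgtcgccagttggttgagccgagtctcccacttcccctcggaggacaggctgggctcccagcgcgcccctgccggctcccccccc
In these 3 windows the matches do not overlap each other, and the Otx2 window shown holds TAATTA 3 times.

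The labels of 10 of the 16 early libraries do not match the averages that the study made from them. For each of the 7 group means of the study, the libraries that enter it were found by non-negative least squares on scaled counts, and in all 7 the libraries entered with equal weight. The mean for E13.5 ONL averages the 4 libraries labelled E11.5 ON and the library labelled E13.5 ON 1. The mean for E13.5 ON averages E13.5 ON 2 to 7 and the library labelled E13.5 ONL 1, and that for E11.5 ON averages E13.5 ONL 2 to 5. All 15 libraries of E16.5 matched their labels. Markers go with the averages. The ONL markers Npy and Prss56 summed to 199 to 523 CPM (read counts relative to the total of the library) in the 5 libraries of the E13.5 ONL average, against 0.444 to 3.16 in the E13.5 ON and 0.0543 to 2.76 in the E11.5 ON average, and the best-correlated library shared the average in 31 of 31 libraries and the label in 26 of 31. Early libraries are therefore grouped below as in the averages, and each early comparison is also given by label. Library totals were 3512627 to 36705535 counts, with 13379107 to 16800784 in the olfactory groups at E16.5 and 30221586 to 32508725 in TN. The glial markers Sox10, Fabp7, Erbb3, S100b and Foxd3 summed to 14992 to 26971 CPM in outer ONL, 16892 to 22090 in inner ONL, 1304 to 3184 in ON and 668 to 734 in TN at E16.5. Such a sum is led by its most abundant genes. The full glial list held 6 genes, not all of them reported here. Of these 6, 5 were higher in outer ONL than in ON at E16.5, but only 1 was higher and 2 were lower in ON than in TN.

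**Figure D1:**
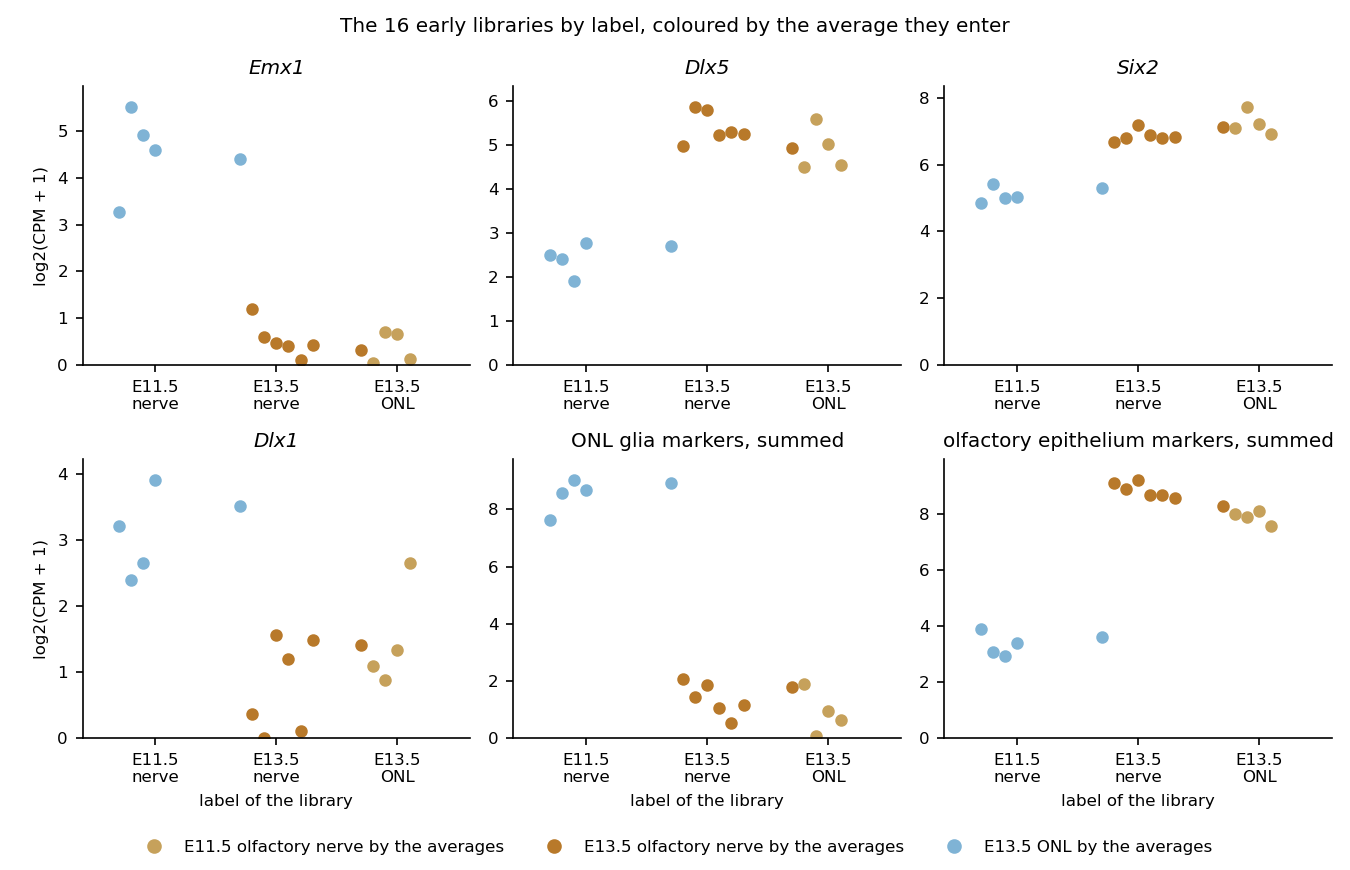
Levels of 4 genes and of 2 marker sums in the 16 early libraries, as log2(CPM + 1) on the vertical axis, by the label of the library on the horizontal axis and coloured by the average it enters. The 5 libraries of the E13.5 ONL average (blue) sit together under both nerve labels, high in Emx1, Dlx1 and ONL markers and low in Dlx5, Six2 and olfactory epithelium markers.

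Levels are given as CPM after TMM scaling, and a fold change is called at an adjusted p under 0.05 (edgeR's quasi-likelihood test, Benjamini-Hochberg adjustment over 19332 genes). Of the 31 genes, 30 passed the filter on low counts. Hesx1, a repressor of the anterior neural plate and pituitary, did not, with at most 0.712 CPM in any library. Across all comparisons, 29 of the 30 were called at least once, and Dlx4, at most 0.997 CPM, was not called in any. The highest group mean was in E13.5 ON for 11 genes, in E16.5 ON and in TN for 5 each, in inner ONL for 4, in E11.5 ON for 3, in outer ONL for 2 and in E13.5 ONL for 1. Per kilobase of exons, which allows genes to be compared, the leading member was Six2 in the 3 early groups (72.5, 56.3 and 16.1 CPM per kb in E11.5 ON, E13.5 ON and E13.5 ONL). At E16.5 it was Alx1 in ON (34.4 CPM per kb), Alx4 in outer and inner ONL (25.9 and 22.6) and Msx1 in TN (62.9).

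**Figure D2:**
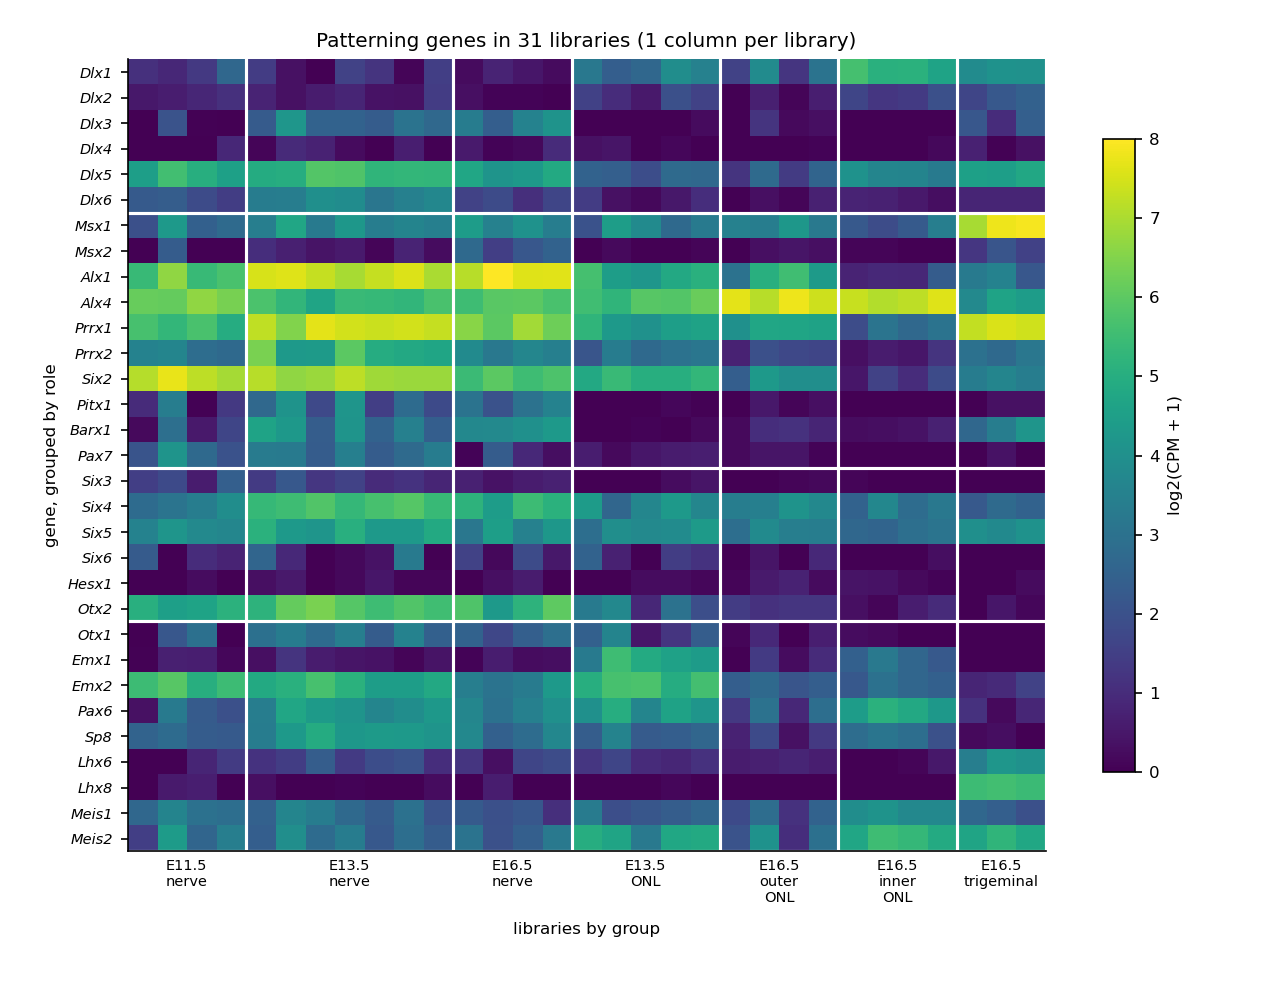
Levels of the 31 genes (rows, grouped by role) in 31 libraries (columns, by group) as log2(CPM + 1), with a colour scale from 0 to 8. Alx1, Prrx1 and Six2 are bright in the olfactory nerve groups, Alx4 in outer and inner ONL, and Msx1, Prrx1 and Lhx8 in the trigeminal nerve.

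Between outer ONL and ON at E16.5, 18 of the 30 genes tested were called, 2 higher and 16 lower in outer ONL (22% of all genes tested were called). The median log2 fold change of the 30 was -2.19, or -1.69 with the 3 genes at the floor in 1 group set to their bounds, against 0.01 over all genes, and 19 of the 31 genes did not overlap between the groups (24.3% of all genes tested). Of the 10 facial mesenchyme genes, 7 were lower, Alx4 was higher, and Msx1 and Pax7 were not called. Of the 6 Dlx genes, Dlx3, Dlx5 and Dlx6 were lower, Dlx1 was higher, and Dlx2 and Dlx4 were not called. Otx2, Six4 and Six3 were lower among 5 placode and neural plate genes tested, and Emx2, Otx1 and Sp8 among 9 forebrain genes.

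Alx1, which acts in the frontonasal mesenchyme, was at 141, 256, 194 and 201 CPM in the 4 ON libraries and at 7.06, 31.8, 45.5 and 19.5 CPM in outer ONL. The groups did not overlap, and Alx1 was 7.62-fold lower in outer ONL (log2 fold change -2.93, SE 0.45, adjusted p = 1.22e-05). Its relative Alx4 went the other way, at 44.5, 60.5, 62.7 and 50.7 CPM in ON and 204, 139.9, 221 and 167 CPM in outer ONL. Every outer ONL library was above every ON library (log2 fold change 1.75, SE 0.22, adjusted p = 6.61e-07), so that these members of 1 family had opposite differences within the same pieces of tissue. Prrx1, which is needed for the growth of skeletal precursors of the face and limbs, was at 95.8, 62.8, 118 and 74.4 CPM in ON and 15.3, 25.8, 24.8 and 23.5 in outer ONL (log2 fold change -1.97, SE 0.28, adjusted p = 3.05e-06). Prrx2, its close relative, was at 13.4, 8.17, 11.9 and 10.1 and 0.690, 2.89, 2.35 and 2.20 CPM (log2 fold change -2.41, SE 0.46, adjusted p = 2.44e-04). For both, all ON libraries were above all outer ONL libraries.

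Six2, a gene of frontonasal and kidney precursors, was at 43.1, 62.1, 45.2 and 54.1 CPM in ON and 4.22, 19.0, 14.4 and 14.7 in outer ONL (log2 fold change -1.96, SE 0.31, adjusted p = 1.39e-05), again without overlap. Pitx1, a gene of the oral and nasal epithelium and of the first arch, was at 7.24, 3.03, 7.09 and 10.8 CPM in ON, and in outer ONL it was at 0, 0.440, 0.0712 and 0.244 CPM (log2 fold change -5.11, SE 1.11, adjusted p = 0.00116, or -5.89 without outer ONL replicate 2). Barx1, a gene of arch mesenchyme, was at 12.2, 12.6, 15.1 and 19.0 and 0.153, 1.07, 1.21 and 0.794 CPM (log2 fold change -4.17, SE 0.79, adjusted p = 1.93e-04). Both were thus close to 0 in every outer ONL library and present in every ON library. Msx2, which acts with Msx1 in bone and tooth formation, was low in both groups, at 5.63, 1.79, 3.51 and 4.71 CPM in ON and 0, 0.251, 0.356 and 0.244 in outer ONL (log2 fold change -4.14, SE 1.21, adjusted p = 0.0123). Msx1 itself was at 20.4, 10.5, 15.9 and 9.47 and 10.5, 9.42, 17.7 and 8.49 CPM, and its groups overlapped (adjusted p = 0.755). Pax7, a gene of nasal crest cells and muscle precursors, was at 0.0619, 4.02, 0.910 and 0.222 CPM in ON, where 1 library was far above the other 3, and at 0.153, 0.377, 0.356 and 0.0610 CPM in outer ONL (adjusted p = 0.0627).

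Otx2, a regulator of anterior head and sense organ development, differed widely. It was at 54.9, 18.8, 34.8 and 64.3 CPM in ON and at 1.69, 1.19, 1.35 and 1.34 CPM in outer ONL, 30.97-fold lower (log2 fold change -4.95, SE 0.58, adjusted p = 1.87e-07). Otx1 was low throughout, at 4.76, 2.29, 4.36 and 6.54 CPM in ON and 0.0767, 0.879, 0 and 0.610 in outer ONL (log2 fold change -3.45, SE 1.15, adjusted p = 0.0304, or -4.17 without outer ONL replicate 2). The Otx1 call was lost without ON replicate 4 or without outer ONL replicate 1, 3 or 4, and its adjusted p ranged from 0.00428 to 0.0897 over the alternatives. Six4, a gene of sensory placodes, was at 35.1, 20.6, 43.8 and 33.9 and 9.51, 9.86, 16.2 and 12.4 CPM (log2 fold change -1.48, SE 0.32, adjusted p = 0.00107). Six3, a gene of the eye field and forebrain, was at 0.681, 0.309, 0.520 and 0.665 CPM in ON and at 3 counts or fewer in every outer ONL library. It was at least 2.67-fold lower there, taking 3 counts per library as the floor (adjusted p = 0.0142). Six5 was at similar levels, 8.11, 21.2, 10.5 and 17.7 and 6.44, 13.1, 9.75 and 9.58 CPM (adjusted p = 0.192), and Six6, a gene of retina and hypothalamus, was at most 2.54 CPM in any library of both groups (adjusted p = 0.420).

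Dlx5, which takes part in forming the olfactory pit and its neurons, was at 25.7, 16.7, 18.9 and 28.4 CPM in ON and 1.30, 5.78, 1.64 and 4.94 in outer ONL (log2 fold change -2.70, SE 0.36, adjusted p = 1.24e-06). Dlx6, whose gene ends 9.2 kb from that of Dlx5 on chromosome 6, was at 1.98, 2.54, 1.11 and 2.22 and 0, 0.251, 0.0712 and 0.671 CPM (log2 fold change -2.88, SE 0.61, adjusted p = 6.85e-04, or -4.03 without outer ONL replicate 4). Dlx3, a gene of surface ectoderm and its appendages, was at 9.28, 4.21, 10.8 and 16.2 and 0, 1.32, 0.142 and 0.244 CPM (log2 fold change -4.51, SE 1.15, adjusted p = 0.00495, or -6.16 without outer ONL replicate 2). All 3 were lower in every outer ONL library than in any ON library. Dlx1, an interneuron gene of the forebrain, was instead 16.2-fold higher in outer ONL (log2 fold change 4.02, SE 0.80, adjusted p = 3.91e-04, or 3.25 without outer ONL replicate 2), at 1.99, 13.6, 1.35 and 7.203 CPM against 0.186, 0.743, 0.390 and 0.166 in ON. Dlx2, 9.4 kb from Dlx1 on chromosome 2, was at 0, 0.628, 0.0712 and 0.610 CPM in outer ONL and 0.248, 0.0619, 0.0650 and 0 in ON (adjusted p = 0.153).

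Emx2, a gene of the dorsal telencephalon and of the olfactory placode, was at 9.84, 7.24, 9.04 and 18.8 CPM in ON and 4.22, 5.59, 3.34 and 4.27 in outer ONL (log2 fold change -1.37, SE 0.32, adjusted p = 0.00199). Sp8, a regulator of facial and olfactory bulb development, was at 12.3, 4.52, 6.05 and 12.2 and 0.690, 2.45, 0.285 and 1.53 CPM (log2 fold change -2.80, SE 0.50, adjusted p = 1.02e-04). Neither overlapped. Pax6, a master regulator of eye, nose and forebrain, was at 11.7, 6.87, 10.1 and 15.3 CPM in ON and at 1.53, 7.10, 0.854 and 6.41 in outer ONL, where replicate 2 was above the lowest ON library (adjusted p = 0.0829). With the replicate number as a block, Pax6 was called (log2 fold change -1.83, SE 0.58, adjusted p = 0.0449). Meis1 and Meis2, partners of Hox and Pax proteins, overlapped between the groups, with 7.30, 2.97, 4.42 and 8.36 CPM of Meis2 in ON and 3.15, 15.9, 1.07 and 6.78 in outer ONL (adjusted p = 0.623 for Meis1 and 0.847 for Meis2). Emx1, Lhx6 and Lhx8 were not called either (adjusted p = 0.266, 0.299 and 0.177).

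Markers of other tissues moved with this comparison. Olfactory epithelium markers (6 genes, Fezf1, Neurog1, Epcam, Cdh1, Krt8 and Krt18) summed to 563.6, 174, 244 and 381 CPM in ON and to 5.49 to 12.4 CPM in outer ONL, and all 6 were lower in outer ONL. Cartilage markers summed to 805 to 4842 CPM in ON and 294 to 885 CPM in outer ONL, and all 4 were lower. Mesenchyme markers summed to 9478 to 16073 and 5717 to 10985 CPM, with 4 of 8 called, all lower. The glial markers listed above went the other way, at 1304 to 3184 CPM in ON and 14992 to 26971 in outer ONL. Forebrain and bulb neuron markers (8 genes, listed below) summed to 26.3 to 64.7 CPM in ON and 8.90 to 79.2 in outer ONL. Of these 8, 4 were higher and 1 was lower in outer ONL. The part of these tissues in the differences was not tested. Taking the replicate number as a block for these groups left 17 of the 18 calls and added that of Pax6, and Six3 did not pass the filter of that fit.

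**Figure D3:**
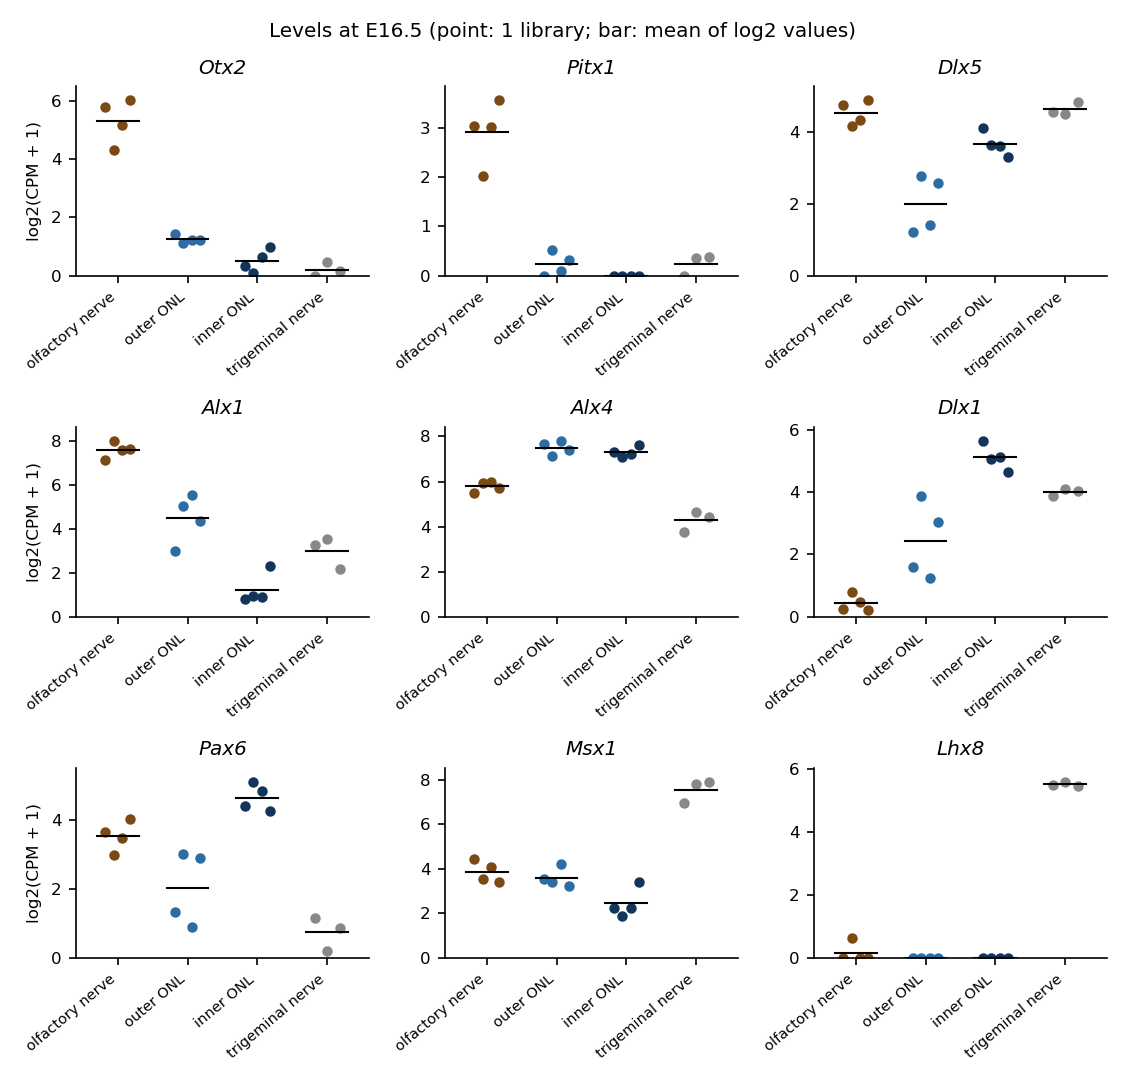
Levels of 9 genes in the 15 libraries of E16.5 as log2(CPM + 1), with 1 point per library and a bar at the mean of the log2 values. Otx2, Pitx1 and Alx1 are highest in olfactory nerve, Alx4 in both parts of the ONL, Dlx1 and Pax6 in inner ONL, and Msx1 and Lhx8 in trigeminal nerve.

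Inner and outer ONL are adjacent parts of 1 layer, cut by their distance from the olfactory bulb. The authors reported that these cuts did not part the inner and outer OEC subpopulations, which differ in their markers. They also reported bulb tissue in the inner ONL libraries. Of the 30 genes tested, 12 were called between inner and outer ONL, 8 higher and 4 lower in inner ONL (14.1% of all genes tested were called), and the groups did not overlap for 14 of the 31 (18.8% of all genes tested). The genes higher in inner ONL were Dlx1, Dlx2 and Dlx5 and the 5 forebrain genes Emx1, Meis1, Meis2, Pax6 and Sp8, and those lower were the facial mesenchyme genes Alx1, Six2, Prrx1 and Prrx2. None of the 5 placode and neural plate genes tested was called. The median log2 fold change of the 30 was -0.92, or -0.18 with 5 genes at the floor in inner or outer ONL set to their bounds, against -0.05 over all genes.

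Dlx1 was at 49.0, 32.5, 33.7 and 24.0 CPM in inner ONL, above all 4 outer ONL libraries (log2 fold change 2.52, SE 0.67, adjusted p = 0.00877, or 3.29 without outer ONL replicate 2). Dlx2 was at 2.22, 1.43, 1.57 and 2.89 CPM (log2 fold change 2.57, SE 0.73, adjusted p = 0.0148), a call that was lost without outer ONL replicate 3 (adjusted p from 0.00254 to 0.0612 over the alternatives). Dlx5 was at 16.1, 11.4, 11.1 and 8.86 CPM, above outer ONL (log2 fold change 1.78, SE 0.35, adjusted p = 5.30e-04) although below ON in every library. Dlx5 was thus lowest in outer ONL, between 2 tissues with more of it. Pax6 was at 20.4, 33.6, 27.7 and 18.2 CPM in inner ONL (log2 fold change 2.64, SE 0.62, adjusted p = 0.00301), Meis2 at 25.9, 44.6, 39.5 and 28.5 CPM (log2 fold change 2.36, SE 0.60, adjusted p = 0.00649, or 3.23 without outer ONL replicate 2) and Meis1 at 14.2, 16.48, 12.2 and 12.4 CPM, against 2.46, 6.22, 1.21 and 4.70 in outer ONL (log2 fold change 1.91, SE 0.45, adjusted p = 0.00288). Sp8 was at 6.25, 7.67, 6.44 and 2.95 CPM (log2 fold change 2.21, SE 0.50, adjusted p = 0.00205). Emx1, a gene of cortical and bulb projection neurons, was at 4.51, 8.43, 5.18 and 3.74 CPM against 0, 1.57, 0.213 and 0.977 in outer ONL (log2 fold change 2.93, SE 0.75, adjusted p = 0.00664, or 3.69 without outer ONL replicate 2). In all 8 genes, every inner ONL library was above every outer ONL library.

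Within outer ONL, replicates 2 and 4 had more Dlx1, Dlx2, Dlx5, Emx1, Meis1, Meis2, Pax6 and Sp8 than replicates 1 and 3. The summed markers of forebrain and bulb neurons (Tbr1, Eomes, Neurod2, Neurod6, Gad1, Gad2, Slc17a7 and Bcl11b) were at 8.90, 79.2, 12.9 and 60.7 CPM in outer ONL replicates 1 to 4, and at 303, 445, 304 and 240.4 CPM in inner ONL. All 8 of these markers were higher in inner ONL without overlap. Their part in the differences was not tested.

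Alx1 fell from outer to inner ONL to 0.740, 0.903, 0.864 and 3.98 CPM (log2 fold change -3.95, SE 0.52, adjusted p = 2.92e-06, or -4.95 without inner ONL replicate 4), and Six2 to 0.404, 1.96, 1.02 and 2.53 CPM (log2 fold change -3.13, SE 0.36, adjusted p = 4.94e-07). Prrx1 was at 2.62, 7.52, 5.50 and 7.29 CPM in inner ONL (log2 fold change -1.96, SE 0.29, adjusted p = 1.45e-05). None of the 3 overlapped. Prrx2 was at 0.269, 0.527, 0.393 and 1.33 CPM and overlapped with outer ONL replicate 1 (log2 fold change -1.66, SE 0.53, adjusted p = 0.0317, or -2.36 without inner ONL replicate 4). Its call was lost without outer ONL replicate 2, 3 or 4, without inner ONL replicate 1, 2 or 3, and in a fit of the 2 groups alone (adjusted p from 0.00663 to 0.119). Alx4 differed from Alx1 here too, at 159, 136, 147 and 196 CPM in inner ONL against 204, 139.9, 221 and 167 in outer ONL, and its groups overlapped, with a log2 fold change of -0.20 (SE 0.22, adjusted p = 0.669). It was 1 of 6 facial mesenchyme genes not called here. Emx2 and Six4 were at 3.56, 6.85, 5.26 and 4.46 CPM and 4.78, 12.1, 6.05 and 8.20 CPM in inner ONL and overlapped with outer ONL (adjusted p = 0.797 and 0.252). Dlx3, Pitx1 and Pax7 were at 0 in all 4 inner ONL libraries. Mesenchyme markers summed to 915 to 2160 CPM in inner and 5717 to 10985 CPM in outer ONL, with 7 of 8 called, all lower in inner ONL.

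**Figure D4:**
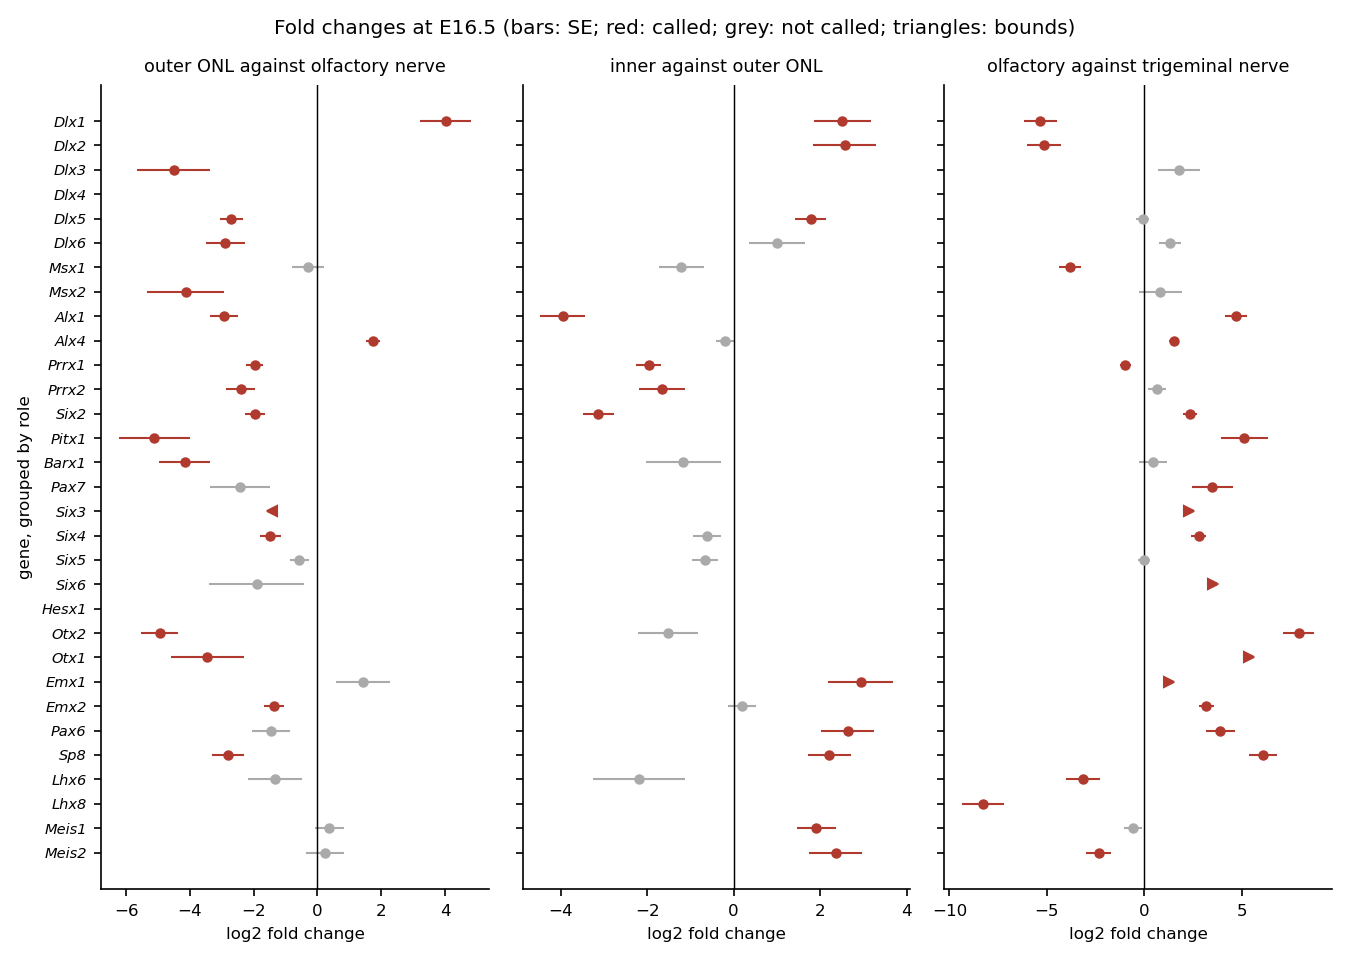
Log2 fold changes with SE for 3 comparisons at E16.5 in the 31 genes, grouped by role on the vertical axis, with called genes in red and others in grey. Triangles are lower bounds for called genes at 3 counts or fewer in all libraries of 1 group, uncalled genes in that position or under 0.5 CPM in both groups are not drawn, and most red points lie left of 0 between outer ONL and olfactory nerve.

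The comparison of ON with TN sets 2 nerves of the nose side by side, one with OECs and the other with Schwann cells. Of the 30 genes tested, 21 were called, 14 higher and 7 lower in ON (23.6% of all genes tested were called), and 22 of the 31 did not overlap (33.7% of all genes tested). The median log2 fold change of the 30 was 1.43, or 1.29 with bounds for 4 genes, against -0.01 over all genes. Lhx8 and Lhx6, LIM homeodomain genes of the ventral forebrain and of the first arch, marked the trigeminal side. Lhx8 was at 44.1, 47.2 and 43.0 CPM in TN and at 0, 0.557, 0 and 0 in ON (log2 fold change -8.27, SE 1.077, adjusted p = 2.71e-06, with only ON replicate 2 above 3 counts in its group), and it was 0 in all 8 libraries of outer and inner ONL. Lhx6 was at 9.66, 17.5 and 15.7 CPM in TN and 1.36, 0.248, 2.21 and 2.66 in ON (log2 fold change -3.13, SE 0.87, adjusted p = 0.00775). Msx1, a gene of palate, tooth and calvarial mesenchyme, was at 124, 223 and 237 CPM in TN and 20.4, 10.5, 15.9 and 9.47 in ON, 13.9-fold lower in ON (log2 fold change -3.79, SE 0.56, adjusted p = 5.38e-06). Every TN library was above every other library of E16.5 in these 3 genes.

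Dlx1, at 13.6, 16.1 and 15.4 CPM in TN, and Dlx2, at 2.20, 3.61 and 4.59 CPM, were lower in ON (log2 fold change -5.33, SE 0.84, adjusted p = 1.56e-05 for Dlx1 and log2 fold change -5.13, SE 0.87, adjusted p = 4.04e-05, with only ON replicate 1 above 3 counts in its group for Dlx2). Meis2 was at 24.5, 36.6 and 26.4 CPM in TN, and it too was lower in ON (log2 fold change -2.33, SE 0.63, adjusted p = 0.00638). Forebrain and bulb neuron markers summed to 2.56 to 2.90 CPM in TN, with Neurod2 and Neurod6 at 0 in all 3 libraries. Prrx1 was at 155, 186 and 171 CPM in TN and 1.94-fold lower in ON (log2 fold change -0.96, SE 0.28, adjusted p = 0.0130). The Prrx1 call was lost without TN replicate 2 and with scaling by library totals (adjusted p from 0.00466 to 0.0793). Dlx5, Six5 and Barx1 overlapped between the nerves. In TN they were at 22.5, 21.5 and 27.1 CPM, 14.7, 13.1 and 16.1 CPM and 5.44, 9.42 and 17.0 CPM (adjusted p = 0.908, 0.973 and 0.693). Msx2, Dlx3, Dlx4, Dlx6, Prrx2 and Meis1 were not called either, with adjusted p of 0.0956 to 0.885, although all ON libraries were above TN in Dlx6 and Prrx2.

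On the olfactory side, Otx2 was at 0, 0.397 and 0.110 CPM in TN and 245-fold higher in ON (log2 fold change 7.94, SE 0.80, adjusted p = 1.02e-08, with only TN replicate 2 above 3 counts in its group). Otx1 was at 0 in all 3 TN libraries and at least 41.2-fold higher in ON (adjusted p = 0.00105). Six3 and Six6 were also at 0 in TN and at least 4.99-fold and at least 11.7-fold higher in ON (adjusted p = 5.68e-04 and 0.0320). The Six6 call was lost without ON replicate 1 or 3 or without any 1 of the 3 TN libraries (adjusted p from 0.00662 to 0.0967). Sp8 was at 0.144, 0.216 and 0 CPM in TN (log2 fold change 6.10, SE 0.70, adjusted p = 9.56e-08, or 6.80 without TN replicate 2), Emx2 at 0.757, 0.938 and 1.99 (log2 fold change 3.19, SE 0.39, adjusted p = 2.31e-07) and Pax6 at 1.23, 0.144 and 0.809 (log2 fold change 3.91, SE 0.76, adjusted p = 2.46e-04, or 4.55 without TN replicate 1). Six4, at 3.68, 5.84 and 4.74 CPM in TN, was 7.01-fold higher in ON (log2 fold change 2.81, SE 0.38, adjusted p = 1.54e-06). These genes of the olfactory placode and telencephalon were above all TN libraries in all 4 ON libraries.

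Among facial mesenchyme genes, Alx1 was at 8.65, 10.7 and 3.53 CPM in TN (log2 fold change 4.70, SE 0.56, adjusted p = 1.72e-07), Alx4 at 12.6, 24.0 and 20.5 (log2 fold change 1.52, SE 0.25, adjusted p = 2.41e-05) and Six2 at 9.23, 11.4 and 9.59 (log2 fold change 2.34, SE 0.34, adjusted p = 4.97e-06). All 3 were higher in every ON library. Pitx1 was at 0, 0.289 and 0.294 CPM in TN (log2 fold change 5.13, SE 1.21, adjusted p = 0.00229). Pax7 was at 0, 0.325 and 0 CPM in TN and overlapped with ON (log2 fold change 3.50, SE 1.06, adjusted p = 0.0164, or 1.79 without ON replicate 2, with only TN replicate 2 above 3 counts in its group), and its call was lost without ON replicate 2 or TN replicate 1 or 3 (adjusted p from 0.00212 to 0.225). Emx1 was at 0 in TN and 0.0619, 0.557, 0.195 and 0.222 CPM in ON, at least 2.38-fold higher (adjusted p = 0.0245), a call lost without ON replicate 2 or without any 1 of the TN libraries (adjusted p from 0.00186 to 0.0798). Mesenchyme was present in both nerves, with summed markers of 9478 to 16073 CPM in ON and 23318 to 27442 CPM in TN. Myelinating Schwann cell markers (Mbp, Prx and Egr2) summed to 1109 to 1531 CPM in TN and 48.1 to 69.4 CPM in ON, cartilage markers to 129 to 165 CPM in TN and olfactory epithelium markers to 19.2 to 30.3 CPM in TN. Their part in the differences was not tested.

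Set against the outer ONL, TN differed in 18 of 30 genes, of which 8 were higher and 10 lower in outer ONL (25.8% of all genes tested were called), and 16 of the 31 did not overlap (34% of all genes tested). This comparison uses the same TN libraries as the one above. Alx4 was 9.61-fold higher in outer ONL (log2 fold change 3.26, SE 0.27, adjusted p = 1.15e-10) and Emx2 3.55-fold higher (log2 fold change 1.83, SE 0.38, adjusted p = 4.05e-04), and neither overlapped. Six4, Sp8 and Otx2 were higher without overlap as well (log2 fold change 1.33, SE 0.36, adjusted p = 0.00600, log2 fold change 3.30, SE 0.69, adjusted p = 4.70e-04, or 3.99 without TN replicate 2 and log2 fold change 2.98, SE 0.80, adjusted p = 0.00522, with only TN replicate 2 above 3 counts in its group). Alx1 and Pax6 were higher with overlap (log2 fold change 1.77, SE 0.49, adjusted p = 0.00707 and log2 fold change 2.45, SE 0.73, adjusted p = 0.0124, or 3.07 without TN replicate 1). The Alx1 call was lost without TN replicate 3 and that of Pax6 without outer ONL replicate 2 or TN replicate 2. With the replicate number as a block, Alx1, Pax6 and Otx2 were not called (adjusted p = 0.133, 0.370 and 0.0650), and Emx1 was not fitted. Emx1 was at least 6.34-fold higher (adjusted p = 0.00151).

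On the other side, Lhx8 was at least 219.7-fold lower in outer ONL (adjusted p = 4.88e-07), Msx1 16.9-fold lower (log2 fold change -4.08, SE 0.57, adjusted p = 1.62e-06) and Lhx6 22.1-fold lower (log2 fold change -4.47, SE 0.93, adjusted p = 4.66e-04). Prrx1 was lower (log2 fold change -2.93, SE 0.30, adjusted p = 6.67e-09), and so were Dlx5 (log2 fold change -2.78, SE 0.37, adjusted p = 9.49e-07) and Barx1 (log2 fold change -3.69, SE 0.80, adjusted p = 6.81e-04). Prrx2, Dlx2 and Meis2 were lower too (log2 fold change -1.74, SE 0.48, adjusted p = 0.00668, log2 fold change -3.34, SE 0.76, adjusted p = 0.00128 and log2 fold change -2.11, SE 0.63, adjusted p = 0.0117, or -2.98 without outer ONL replicate 2). Msx2 was lower (log2 fold change -3.31, SE 1.22, adjusted p = 0.0440), but the call was lost without any 1 of the 7 libraries and with scaling by library totals (adjusted p from 7.62e-04 to 0.126). Dlx1 and Six2, which separated outer ONL from ON, were not called against TN (adjusted p = 0.169 and 0.434). Forebrain and bulb neuron markers summed to 8.90 to 79.2 CPM in outer ONL and 2.56 to 2.90 in TN, with 8 of 8 higher in outer ONL, and mesenchyme markers to 5717 to 10985 and 23318 to 27442 CPM, with 5 of 8 lower. The Schwann cell markers listed above summed to 23.7 to 42.4 CPM in outer ONL and 1109 to 1531 in TN. Their part in the differences was not tested.

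At E13.5, 18 of 30 genes were called between ONL and ON, 3 higher and 15 lower in ONL (31.5% of all genes tested were called), and 15 of the 31 did not overlap (19.6% of all genes tested). The median log2 fold change of the 30 was -1.75, or -1.58 with bounds for 2 genes, against -0.03 over all genes. Emx1, Dlx1 and Meis2 were higher. Emx1 was at 8.58, 44.8, 28.9, 22.9 and 20.2 CPM in the 5 ONL libraries and 0.0740 to 1.29 with a median of 0.350 in the 7 ON libraries (log2 fold change 5.74, SE 0.65, adjusted p = 5.21e-08, or 6.35 without the library labelled E13.5 ON 2). Dlx1 was at 8.30, 4.25, 5.33, 14.1 and 10.5 CPM in ONL and 0 to 1.96 with a median of 1.30 in ON (log2 fold change 3.00, SE 0.58, adjusted p = 1.51e-04). The lowest ONL library was above the highest ON library in both. Meis2 was at 30.99, 24.8, 8.39, 26.4 and 27.8 CPM in ONL and 3.65 to 14.6 with a median of 5.89 in ON, with overlap (log2 fold change 1.76, SE 0.48, adjusted p = 0.00481). Forebrain and bulb neuron markers summed to 721 to 923 CPM in ONL and 35.3 to 97.7 CPM in ON, and 7 of 8 were higher in ONL without overlap, so that they moved with these 3 genes. Their part was not tested.

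The lower genes at E13.5 came from all groups of roles. Of the 10 facial mesenchyme genes, 7 were lower and none was higher. Prrx1 was at 37.1, 18.6, 15.5, 21.3 and 23.4 CPM in ONL and 88.3 to 205 with a median of 162 in ON (log2 fold change -2.81, SE 0.25, adjusted p = 3.12e-10), Alx1 at 49.3, 21.03, 17.6, 27.3 and 33.0 and 123 to 196 with a median of 156 (log2 fold change -2.47, SE 0.39, adjusted p = 6.90e-06), and Six2 at 27.7, 42.1, 31.2, 31.8 and 38.0 and 102 to 145 with a median of 112 (log2 fold change -1.80, SE 0.26, adjusted p = 1.72e-06). Prrx2 was at 3.32, 9.29, 5.66, 7.16 and 7.92 CPM in ONL and 18.9 to 83.7 with a median of 27.4 in ON (log2 fold change -2.49, SE 0.38, adjusted p = 6.12e-06). Barx1, at 4.16 to 23.8 with a median of 10.3 CPM in ON, was at most 0.143 CPM in ONL (log2 fold change -7.33, SE 0.94, adjusted p = 2.92e-07, with only the library labelled E13.5 ON 1 above 3 counts in its group), and Pitx1, at 1.78 to 16.9 with a median of 5.47 CPM in ON, was at 3 counts or fewer in all ONL libraries, at least 22.1-fold lower (adjusted p = 2.42e-05). Pax7 was at 0.553, 0.144, 0.390, 0.519 and 0.609 CPM in ONL and 3.99 to 10.03 with a median of 8.94 in ON (log2 fold change -4.05, SE 0.80, adjusted p = 2.16e-04). None of these 7 overlapped.

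Dlx5 was at 4.70, 4.32, 2.73, 5.81 and 5.55 CPM in E13.5 ONL and 29.3 to 57.5 with a median of 37.3 in ON (log2 fold change -3.13, SE 0.32, adjusted p = 3.83e-09), Dlx6 at 1.66, 0.288, 0.130, 0.415 and 1.07 and 7.79 to 14.9 with a median of 10.2 (log2 fold change -4.12, SE 0.52, adjusted p = 2.16e-07), and Dlx3 at 0, 0, 0, 0 and 0.179 and 3.90 to 17.4 with a median of 4.73 (log2 fold change -6.60, SE 1.28, adjusted p = 1.89e-04, with only the library labelled E13.5 ON 1 above 3 counts in its group). Otx2 was at 8.85, 12.4, 0.845, 7.16 and 2.79 CPM in ONL and 35.0 to 83.9 with a median of 55.7 in ON (log2 fold change -3.18, SE 0.46, adjusted p = 1.94e-06), and Six4 at 19.9, 5.18, 11.7, 19.3 and 11.7 and 39.7 to 59.1 with a median of 45.3 (log2 fold change -1.83, SE 0.28, adjusted p = 5.93e-06). Six3 was at 0, 0, 0, 0.208 and 0.358 CPM in ONL and 0.769 to 3.56 with a median of 1.39 in ON (log2 fold change -3.48, SE 0.75, adjusted p = 5.38e-04, with only the library labelled E13.5 ON 1 above 3 counts in its group). The groups did not overlap in these 6. Six5 and Sp8 were lower with overlap (log2 fold change -0.82, SE 0.25, adjusted p = 0.0113 and log2 fold change -1.70, SE 0.40, adjusted p = 0.00117). Olfactory epithelium markers summed to 6.57 to 13.8 CPM in ONL and 315 to 601 CPM in ON, with all 6 lower in ONL, and their part was not tested. Alx4, Emx2, Pax6, Msx1 and Meis1 were not called (adjusted p from 0.0870 to 0.744). With the libraries grouped by label, 6 genes were called (17.7% of all genes tested), Alx4 higher and Emx1, Pax6, Prrx1, Six4 and Sp8 lower in ONL, and the fold changes of Emx1 and Dlx1 changed sign, to -3.41 (adjusted p = 0.0315) and -0.19 (adjusted p = 0.879).

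From E11.5 to E13.5, 11 of 30 genes changed in ON, 10 rising and 1 falling (36.6% of all genes tested were called), and 11 of the 31 did not overlap (21.2% of all genes tested). The share of the 30 genes called, 36.7%, was near that of all genes. Six4 rose from 5.96, 7.42, 9.54 and 14.3 CPM at E11.5 to the E13.5 levels given above (log2 fold change 2.35, SE 0.31, adjusted p = 8.52e-07), Prrx1 from 50.6, 38.3, 51.0 and 29.7 (log2 fold change 1.91, SE 0.26, adjusted p = 9.73e-07) and Prrx2 from 10.6, 11.4, 6.22 and 5.59 (log2 fold change 2.18, SE 0.41, adjusted p = 1.07e-04). Alx1 rose from 40.8, 102, 41.0 and 51.0 CPM (log2 fold change 1.46, SE 0.39, adjusted p = 0.00429), while Alx4 fell from 69.1, 68.1, 101 and 80.6 to 24.6 to 52.8 with a median of 40.1 (log2 fold change -0.96, SE 0.19, adjusted p = 1.94e-04). No library of E11.5 reached the range of E13.5 in these 5 genes. Sp8 rose from 4.90, 5.92, 4.03 and 3.78 to 9.29 to 29.1 with a median of 19.2 CPM (log2 fold change 1.999, SE 0.43, adjusted p = 5.44e-04), Pax6 from 0.291, 8.69, 3.90 and 2.88 to 9.53 to 25.5 with a median of 16.7 (log2 fold change 2.06, SE 0.56, adjusted p = 0.00461, or 2.82 without the library labelled E13.5 ONL 3) and Dlx6 from 3.82, 4.13, 2.57 and 1.71 (log2 fold change 1.86, SE 0.47, adjusted p = 0.00247). Six5 rose from 10.7, 16.9, 12.7 and 11.6 to 17.2 to 33.8 with a median of 19.3 CPM (log2 fold change 0.89, SE 0.27, adjusted p = 0.00972). Dlx3 and Barx1 rose from 0, 3.10, 0.0415 and 0 and from 0.159, 6.57, 0.456 and 2.17 CPM (log2 fold change 3.08, SE 0.99, adjusted p = 0.0158, with only the library labelled E13.5 ONL 3 above 3 counts in its group and log2 fold change 2.32, SE 0.66, adjusted p = 0.00616, or 3.66 without the library labelled E13.5 ONL 3). For both, 1 library of E11.5 held most of the signal, and the Dlx3 call was lost in a fit of the 2 groups alone (adjusted p from 3.76e-06 to 0.0520).

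Several genes were already high in the nerve at E11.5 and were not called between these stages. Six2 was at 136, 212, 147 and 119.9 CPM, Emx2 at 43.6, 59.5, 31.2 and 43.7, Dlx5 at 21.5, 46.9, 31.6 and 22.2 and Otx2 at 32.2, 21.8, 24.2 and 34.5 CPM at E11.5, the last below every library of E13.5 (adjusted p = 0.274, 0.101, 0.286 and 0.0713). Mesenchyme markers summed to 2150 to 2833 CPM at E11.5 and 3342 to 6254 CPM at E13.5, with 6 of 8 higher and 1 lower. Olfactory epithelium markers summed to 189 to 280 CPM at E11.5 and 315 to 601 CPM at E13.5, with 4 of 6 called, all higher. The glial markers listed above summed to 526 to 941 and 424 to 932 CPM. Of the full glial list of 6 genes, 2 were higher and 3 lower at E13.5. The part of these tissues in the differences was not tested. By label, 16 genes were called (17.5% of all genes tested), with Emx1 lower and 15 higher at E13.5, and Pax6 changed sign to -0.21 (adjusted p = 0.846).

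From E13.5 to E16.5, 12 genes changed in ON, 11 falling and 1 rising (28.8% of all genes tested were called), and 8 of the 31 did not overlap (21.2% of all genes tested). Emx2 fell from 20.8 to 50.1 with a median of 28.3 to 9.84, 7.24, 9.04 and 18.8 CPM (log2 fold change -1.44, SE 0.28, adjusted p = 3.29e-04), Six2 fell to 43.1, 62.1, 45.2 and 54.1 (log2 fold change -1.22, SE 0.27, adjusted p = 9.96e-04), Prrx2 to 13.4, 8.17, 11.9 and 10.1 (log2 fold change -1.82, SE 0.40, adjusted p = 0.00101) and Dlx6 to 1.98, 2.54, 1.11 and 2.22 (log2 fold change -2.50, SE 0.49, adjusted p = 3.17e-04). These 4 did not overlap between the stages, and neither did Dlx2, which fell from 0.292 to 1.68 with a median of 0.520 CPM (log2 fold change -2.76, SE 0.80, adjusted p = 0.00965, with only ON replicate 1 above 3 counts in its group). Prrx1 fell with overlap (log2 fold change -0.86, SE 0.24, adjusted p = 0.00799). Msx2 rose from 0.0811 to 1.078 with a median of 0.505 to 5.63, 1.79, 3.51 and 4.71 CPM (log2 fold change 2.89, SE 0.92, adjusted p = 0.0175), a call lost without E16.5 ON replicate 1. Pax7, Meis1, Sp8, Dlx5 and Six5 fell by 2.49, 1.18, 1.09, 0.85 and 0.74 on the log2 scale (adjusted p = 0.0145, 0.0300, 0.0469, 0.0314 and 0.0372), the log2 fold change of Pax7 was -4.20 without E16.5 ON replicate 2, and each of these 5 calls was lost without at least 2 of the E16.5 ON libraries taken singly. Without E16.5 ON replicate 3, 7 genes were called in place of 12. Otx2, Alx1, Alx4, Pitx1, Barx1, Dlx3 and Msx1 were not called, with adjusted p of 0.103 to 0.957. By label, 8 genes were called (25.1% of all genes tested). Cartilage markers summed to 74.8 to 490.6 CPM at E13.5 and 805 to 4842 CPM at E16.5, with 4 of 4 higher, and mesenchyme markers to 3342 to 6254 and 9478 to 16073 CPM, with 6 of 8 higher and 1 lower. The glial markers listed above summed to 424 to 932 and 1304 to 3184 CPM. Their part in the differences was not tested.

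**Figure D5:**
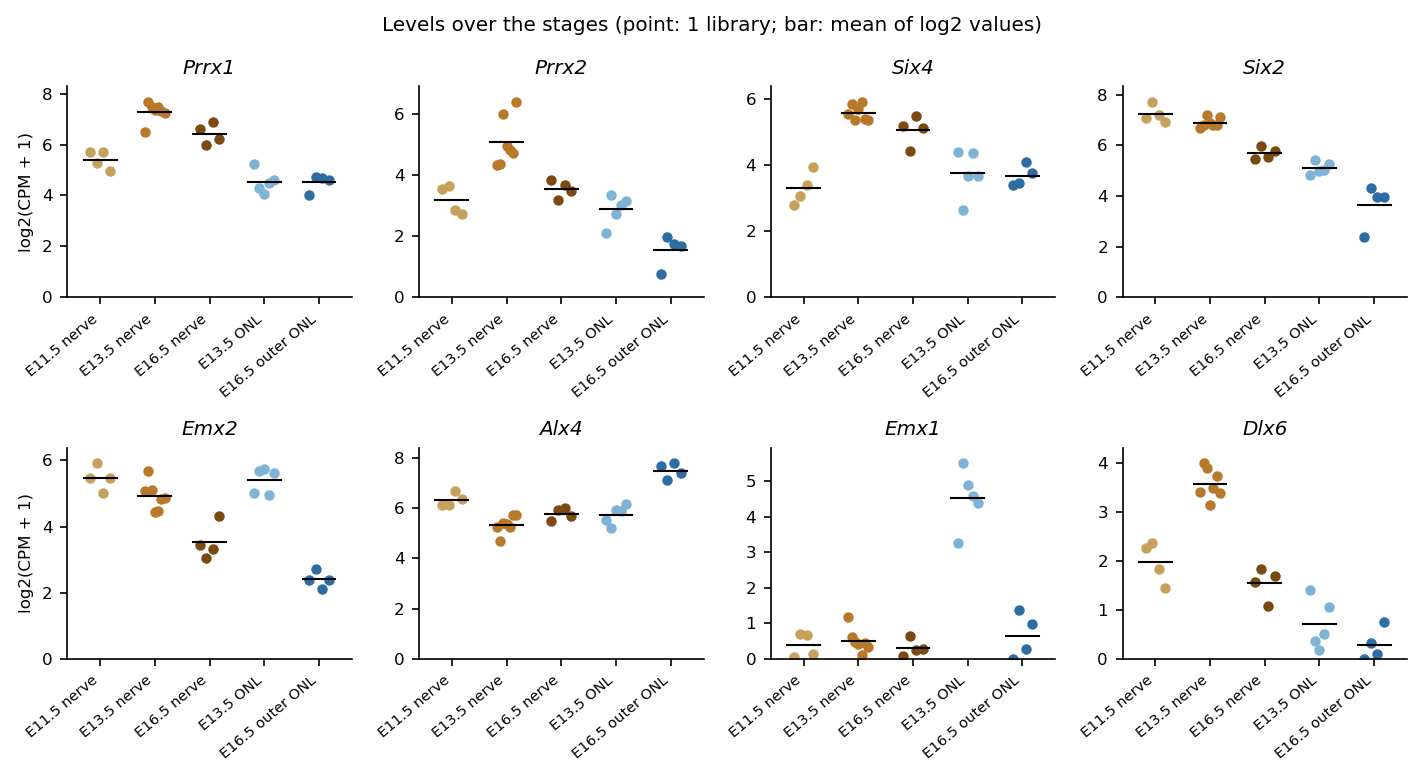
Levels of 8 genes as log2(CPM + 1) in olfactory nerve at 3 stages and in ONL at 2 stages, with early libraries grouped by the averages, 1 point per library and a bar at the mean of the log2 values. Prrx1, Prrx2, Six4 and Dlx6 are highest in E13.5 nerve, Emx2 is lower at E16.5 in nerve and ONL, Alx4 is highest in E16.5 outer ONL, and Emx1 stands out in E13.5 ONL.

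In the ONL, 12 genes differed between E13.5 and outer ONL at E16.5, 10 lower and 2 higher at E16.5 (41.9% of all genes tested were called), and 9 of the 31 did not overlap (32.2% of all genes tested). The share of the 30 genes called, 40%, was near that of all genes. Emx2 was at 31.3, 49.97, 52.2, 29.9 and 47.9 CPM in E13.5 ONL and 9.70-fold lower in outer ONL (log2 fold change -3.28, SE 0.33, adjusted p = 3.90e-09), and Emx1 was 35.3-fold lower (log2 fold change -5.14, SE 0.79, adjusted p = 5.79e-06, or -5.90 without outer ONL replicate 2). Pax6 was at 15.2, 30.96, 11.51, 23.6 and 17.2 CPM in E13.5 ONL (log2 fold change -2.30, SE 0.60, adjusted p = 0.00243) and Sp8 at 4.15, 10.9, 3.90, 4.26 and 5.19 (log2 fold change -2.19, SE 0.48, adjusted p = 5.12e-04). Six2 and Prrx2 were lower as well (log2 fold change -1.39, SE 0.29, adjusted p = 2.95e-04 and log2 fold change -1.73, SE 0.45, adjusted p = 0.00222), and none of these 6 overlapped. Otx2, Meis2, Dlx2 and Otx1 were lower with overlap (log2 fold change -2.15, SE 0.55, adjusted p = 0.00200 for Otx2, log2 fold change -1.80, SE 0.58, adjusted p = 0.0127, or -2.67 without outer ONL replicate 2 for Meis2, log2 fold change -2.26, SE 0.71, adjusted p = 0.0115 for Dlx2 and log2 fold change -3.39, SE 1.13, adjusted p = 0.0171, or -2.61 without the library labelled E11.5 ON 2, or -4.12 without outer ONL replicate 2 for Otx1), and the Otx1 call was lost without the library labelled E11.5 ON 2 or outer ONL replicate 1 or 3 (adjusted p from 0.0100 to 0.0700). Alx4 was at 45.4, 36.6, 60.02, 57.8 and 70.8 CPM in E13.5 ONL and higher at E16.5 (log2 fold change 1.75, SE 0.21, adjusted p = 7.76e-08), and Barx1, near 0 at E13.5, was higher too (log2 fold change 3.48, SE 1.07, adjusted p = 0.00924, with only the library labelled E13.5 ON 1 above 3 counts in its group). Forebrain neuron markers summed to 721 to 923 CPM in E13.5 ONL, against 8.90 to 79.2 in outer ONL, and 5 of 8 were lower at E16.5. At E16.5 the ONL was cut in 2 parts and at E13.5 it was not, so that stage and dissection cannot be told apart here. By label, 17 genes were called (35.2% of all genes tested), and Barx1 and Emx1 changed sign, to -3.00 (adjusted p = 0.0224) and 1.14 (adjusted p = 0.477).

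Whether the difference between ONL and nerve itself changed from E13.5 to E16.5 was tested with an interaction term. It was called for 3 of the 30 genes (12.3% of all genes tested). The share of the 30 genes called, 10%, was not above that of all genes. The ONL minus nerve difference of Alx4 was larger at E16.5 by 1.34 (SE 0.29, adjusted p = 0.00168) on the log2 scale, that of Emx2 was smaller by 1.84 (SE 0.40, adjusted p = 0.00207), and that of Emx1 smaller by 4.31 (SE 1.12, adjusted p = 0.00944). At E13.5, Alx4 and Emx2 were not called between ONL and ON (adjusted p = 0.0870 and 0.151), and at E16.5 they were called in opposite directions. Forebrain and bulb neuron markers moved the same way as Emx2 and Emx1, with 5 of 8 called in the interaction, all lower, and their part was not tested. The Emx1 value was -4.92 without the library labelled E13.5 ON 2, -5.07 without outer ONL replicate 2 and -3.65 without E16.5 ON replicate 2, where its call was lost (adjusted p from 4.82e-04 to 0.0758 over the alternatives). For Alx1, Prrx1, Prrx2, Six2, Six4, Dlx5 and Dlx6, lower in ONL at both stages, the interaction was not called (adjusted p from 0.128 to 0.969).

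Members whose genes are neighbours could differ widely. Six2 and Six3 lie 55.0 kb apart on chromosome 17 (GRCm38 annotation of GENCODE M21), and in E11.5 ON Six2 was at 72.5 CPM per kb of exons and Six3 at 0.424. Dlx5 and Dlx6, also neighbours, were at 17.95 and 4.69 CPM per kb in E13.5 ON and had the same direction in each of the comparisons of ONL with ON. The libraries do not keep strand, so reads of overlapping antisense genes cannot be told apart. The longer of 2 annotated genes named Dlx6os1, which overlaps Dlx6, was at 6.83 CPM per kb in E13.5 ON, against 4.69 for Dlx6, and at 4.19 CPM per kb in inner ONL, against 0.224 for Dlx6. Six3os1 was at 0.765 CPM per kb in E11.5 ON, against 0.424 for Six3, and Emx2os at 2.54, against 14.8 for Emx2. Dlx1as, Dlx4os, Otx2os1 and Pax6os1 stayed at 2.13 CPM or less in every group mean.

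A list of 23 related patterning genes that are no members was examined beside them, and 18 were tested. Between outer ONL and ON at E16.5, 3 were higher and 8 lower, and between ON and TN 8 were higher and 2 lower. Between inner and outer ONL 1 was higher and 3 lower. Lhx2, a gene of olfactory neurons and telencephalon, was at 68.5, 40.1, 48.6 and 108 CPM in ON and 1.30, 7.04, 1.99 and 2.50 in outer ONL (log2 fold change -4.35, SE 0.54, adjusted p = 3.60e-07). It went with Otx2, and every ON library was above every outer ONL library.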

How the data were processed

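The authors cut pieces of nerve by laser from cryosections of embryos with the transgene Sox10:H2BVenus, pooled the pieces of several sections, made cDNA with a kit that does not mark strand, and sequenced it in pairs of reads. Reads were aligned to mm10 (GRCm38) with TopHat2 2.1.0 and counted per gene with HTSeq, per the labels and the study's methods. The deposited values are raw counts, and the strand setting of the counting is not given in the sources used here. Symbols and exon lengths came from GENCODE M21, which gave a symbol to 47224 of 47729 identifiers.

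From these counts, genes were kept with the default filter of edgeR 4.0.16 (R 4.3.3), scaled by TMM (factors of 0.854 to 1.14) and fitted with 1 quasi-likelihood model of 31 libraries in 7 groups, with Benjamini-Hochberg adjustment over 19332 genes. CPM values use TMM-scaled totals. A gene with 3 counts or fewer in every library of a group was put at a floor of 3 counts per library. Early libraries were grouped by the averages of the study, with the grouping by label as an alternative. DESeq2 1.42.0, other scalings and filters, smaller sets of libraries and leaving out each library in turn were the other alternatives. The scripts were tested on simulated counts. All 31 genes are named by rule, and fold changes are given for those called. The 31 genes, the lists of related genes and markers, and the tests were chosen with earlier results of these data known, so they are no independent evidence of a direction. A few related genes and markers are not reported here.

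Replicate numbers were checked for pairing by correlating deviations from the group means over 10607 genes. Only between outer ONL and ON at E16.5 were all correlations of the same number positive, at 0.264 to 0.495 in 4 pairs. Pairs of different number there had -0.412 to 0.391, which overlaps, so the evidence of pairing is limited. The precision of CPM rests on library totals of 3512627 to 36705535 counts, and the floor covers counting error only.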

Additional observations from a re-analysis of the deposited data

Results flagged for a closer look

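Of 88 levels checked (genes with a mean of at least 5 CPM in groups of 4 to 7 libraries), 4 had 1 library that stood apart from the rest of its group by Dixon's ratio, which chance gives in about 1 of 20 groups. Alx1 was at 102 CPM in the E11.5 ON library labelled E13.5 ONL 3, against 40.8 to 51.0 CPM in the other 3. Dlx3 was at 17.4 CPM in E13.5 ON 2, against 3.90 to 7.26 CPM in the other 6. In the E13.5 ONL group, Meis2 was at 8.39 CPM in the library labelled E11.5 ON 3, against 24.8 to 30.99 CPM in the other 4, and Sp8 was at 10.9 CPM in the library labelled E11.5 ON 2, against 3.90 to 5.19 CPM.

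For 3 genes the difference between ONL and nerve itself differed between E13.5 and E16.5, by the interaction term of edgeR's quasi-likelihood test. They are 10% of the 30 genes tested, against 12.3% of all genes, so such calls were no more frequent in this set. Its log2 value was 1.34 for Alx4 (SE 0.29, adjusted p = 0.00168), -1.84 for Emx2 (SE 0.40, adjusted p = 0.00207) and -4.31 for Emx1 (SE 1.12, adjusted p = 0.00944). With the early libraries grouped by label, the Emx1 value changed sign, to 4.83.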

How the results depend on the processing

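The grouping of the early libraries changed the results most. By label, 6 genes were called between ONL and ON at E13.5 and 10 in the interaction, where DESeq2 called 5. By label, the log2 fold changes of Dlx1 (-0.19), Emx1 (-3.41), Meis2 (-0.33), Pax7 (0.31), Six2 (0.52) and Six3 (0.56) between ONL and ON at E13.5, of Pax6 (-0.21) between E13.5 and E11.5 ON, of Barx1 (-3.00) and Emx1 (1.14) between outer ONL and E13.5 ONL, and of Emx1 (4.83) in the interaction changed sign. Over 125 called differences, 87 kept direction and call by label, as did 1086 of 1150 values with 1 library left out and 975 of 993 under the other alternatives, where no sign changed. The 125 include the differences at E16.5, whose groups hold the same libraries under both groupings. Among the 18 genes called between ONL and ON at E13.5, only Prrx1, Six4 and Sp8 kept direction and call by label.

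With 1 library left out, the count of genes called ranged from 17 to 19 between outer ONL and ON, 10 to 14 between inner and outer ONL, 18 to 21 between ON and TN, 16 to 18 between outer ONL and TN, 18 to 19 between ONL and ON at E13.5, 11 to 14 between E13.5 and E11.5 ON, 7 to 11 between E16.5 and E13.5 ON, 11 to 13 between outer ONL and E13.5 ONL, and 3 to 4 in the interaction. With the replicate number as a block, 18 genes were called between outer ONL and ON, 17 of them shared with the unblocked fit, with Pax6 added and Six3 not fitted, and no other call changed there. In the other E16.5 comparisons, correlations of the same number were not all positive. There the block gave 13 genes between inner and outer ONL (12 shared), 18 between ON and TN (17 shared) and 14 between outer ONL and TN (14 shared). For the comparisons with early groups, no paired analysis was possible because these groups, as averaged, hold libraries with other labels and share too few replicate numbers. Genes under about 1 CPM, such as Six3, Six6 and Emx1 in ON, rest on few counts, and the causes of lost calls were not tested.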
